A study of Mus musculus with 2 samples.

Results

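A set of genes of cholesterol synthesis and its control, 8 of the 32285 genes listed in the count tables, were examined in donor T cells after allogeneic hematopoietic cell transplantation (allo-HCT). They were chosen by symbol: Hmgcs1, Idi1, Fdps, Fdft1, Sqle and Cyp51 encode enzymes of the pathway, and Insig1 and Srebf2 encode its regulators. None of the 8 encodes an uptake protein, and uptake genes are therefore given from a wider list of 63 pathway genes that also holds the 8. Splenic T cells of C57BL/6 donors, wild type by the study's legends, were given with T cell–depleted bone marrow to lethally irradiated BALB/c mice. This is a fully mismatched model of acute graft-versus-host disease (aGvHD). The labels and the study's legends do not all give the same donor T cell dose. Live cells positive for CD45, H2Kb and TCRβ and negative for H2Kd, that is, donor T cells, were sorted from spleen and made into 2 single-cell RNA-seq (scRNA-seq) libraries, 1 from day +7 and 1 from day +14. Cells of several spleens were pooled. The study's methods describe the mice as females between 6 and 12 weeks old, but also state that both sexes were used in vivo. The sort of both libraries is described as made on day +7, so the day of each was taken from its title.

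Cholesterol is built from acetyl-CoA through mevalonate, isoprenoids, squalene and lanosterol. The genes of this chain are switched on by SREBP2, the protein encoded by Srebf2. When sterols are plentiful, INSIG proteins hold SREBP2 and its escort SCAP in the endoplasmic reticulum, and when sterols are scarce SREBP2 is moved to the Golgi, cleaved by proteases and its active part sent to the nucleus. Dividing T cells need sterols for new membrane and isoprenoids for the lipid anchors of small GTPases, and activated T cells are known to raise this program.

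SREBP2 binds sterol regulatory elements together with partners such as NF-Y, and promoter sequence was therefore read for these motifs. RefSeq promoters of build GRCm38.p6 were at hand for 5 of the 8 genes, namely Hmgcs1, Idi1, Cyp51, Insig1 and Srebf2. The 250 bases before each RefSeq start were searched on both strands. The gene positions given below come from another annotation, GENCODE, whose starts differ. By those positions the windows of Idi1, Cyp51, Insig1 and Srebf2 run into the gene, and that of Hmgcs1 does not. The element TCACNCCAC was in 1.05% of 32851 promoters of this length and in Hmgcs1 alone among the 5, as TCACCCCAC from base 137 to base 129 before the start. CCAAT, the NF-Y motif, was in 33.8% of all promoters and in each of the 5. It was also in 15 of 19 promoters of the synthesis genes on the wider list, against 31 of 61 over the whole list. Hmgcs1 held it 3 times and Idi1 2 times, and Cyp51, Insig1 and Srebf2 each held it once, with no overlap between motifs. By the GENCODE positions, the CCAAT matches of Idi1 and Cyp51 lie within the gene and not before it. Shown are the promoter of Hmgcs1, because it held both motifs, and those of Idi1 and Cyp51, because these genes, of the 5, varied most with the cell cycle. Capitals mark the motifs, and each runs 5′ to 3′ on the strand of its gene.
Hmgcs1, chr13:119690101-119690350, plus strand: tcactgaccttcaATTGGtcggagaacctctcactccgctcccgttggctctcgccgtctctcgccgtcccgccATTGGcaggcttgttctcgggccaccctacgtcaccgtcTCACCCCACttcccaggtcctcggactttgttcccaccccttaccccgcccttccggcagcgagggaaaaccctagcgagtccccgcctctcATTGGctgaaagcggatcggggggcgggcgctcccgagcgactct
Idi1, chr13:8885356-8885605, plus strand: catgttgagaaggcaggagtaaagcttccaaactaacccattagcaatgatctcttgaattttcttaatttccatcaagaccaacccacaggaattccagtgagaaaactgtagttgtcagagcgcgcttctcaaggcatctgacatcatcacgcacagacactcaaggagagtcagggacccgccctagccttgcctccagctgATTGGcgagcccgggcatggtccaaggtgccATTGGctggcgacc
Cyp51, chr5:4104698-4104947, minus strand: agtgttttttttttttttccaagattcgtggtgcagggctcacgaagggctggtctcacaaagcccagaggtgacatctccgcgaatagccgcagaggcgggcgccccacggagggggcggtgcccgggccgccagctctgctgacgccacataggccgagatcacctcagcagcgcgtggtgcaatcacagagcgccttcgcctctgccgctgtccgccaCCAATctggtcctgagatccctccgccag
A match is a description of the letters in these windows and not evidence of a bound site.

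After barcodes outside 500 to 7500 detected genes or above 15% mitochondrial unique molecular identifiers (UMIs) were left out, there were 7179 cells for day +7, holding 86745047 UMIs, and 7794 for day +14, holding 83808218. Cells had a median of 9210 and 8144 UMIs. The libraries share 20 barcode sequences, 17 of them among kept cells. A level is the sum of a gene's UMIs over the cells of a gate per 1000000 UMIs of that gate (CPM), and differences are log2 ratios of these levels. Brackets hold 95% intervals, exact Poisson for levels and exact binomial for ratios and shares. They cover counting error only, since each day is 1 library with no replicate, and no test was made. A gene was counted as past the threshold at a log2 ratio of at least 0.5 in size, which is 1.41-fold. Background shares refer to genes that averaged 10 CPM or more and had at least 50 UMIs over the groups compared. Genes of the 8 that were under this minimum are given all the same. Cells were gated by transcript into CD8 (Cd8a or Cd8b1 and no Cd4; 5979 at day +7 and 6003 at day +14), CD4 (478 and 708) and non-T cells with more UMIs of a granulocyte, macrophage, erythroid or B cell list than of the 6 T cell genes (209 and 147). CD8 and CD4 cells with at least 0.1% of their UMIs on the S phase or the G2/M list were called cycling, and 27.1% and 26.2% of them lay within 0.05% to 0.2%. All 6 T cell genes were detected, at a sum of 5981 CPM in the T gate against 607 CPM in the non-T gate at day +7 and of 7612 against 1912 CPM at day +14. Stmn1, a cycling gene on no list used here, was at 928 CPM in cycling and 161 CPM in non-cycling CD8 cells at day +7, and at 970 and 102 CPM at day +14.

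Over all kept cells, the 8 genes together were at 166 CPM [163, 169] at day +7 and at 179 CPM [176, 181] at day +14, a log2 ratio of 0.10 [0.07, 0.14]. None of the 8 was past 0.5, and 7 of them passed the minimum, whereas 14.1% of the 6919 genes tested were past it upward and 3.27% downward. The median of all genes was 0.18, so the sum lay 0.08 below it. Scaling by the median ratio of 10351 well-counted genes lowered every log2 ratio by 0.21 and turned the sum to -0.10 [-0.14, -0.07]. Under both scalings Fdps and Sqle were below 0, and Fdft1, Cyp51 and Srebf2 were above it. After the median scaling the intervals of Cyp51, 0.09 [-0.02, 0.19], Srebf2, 0.06 [-0.02, 0.13], and Fdft1, 0.02 [-0.10, 0.13], include 0. Before it that of Sqle, -0.0011 [-0.14, 0.14], includes 0.

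Hmgcs1, which makes HMG-CoA at the head of the mevalonate steps (ENSMUSG00000093930, chr13:119690379-119708260), was at 18.0 CPM [17.2, 19.0] at day +7 and at 19.7 CPM [18.8, 20.7] at day +14. Its day log2 ratio was 0.13 [0.03, 0.23] and became -0.08 [-0.18, 0.02] under the median scaling. Idi1, the isomerase that sets the balance of the basic isoprenoid units (ENSMUSG00000058258, chr13:8885501-8892451), had 20.1 CPM [19.2, 21.1] and 20.7 CPM [19.7, 21.7], and these intervals overlap. Fdps makes farnesyl diphosphate, the branch point between sterols and protein prenylation (ENSMUSG00000059743, chr3:89093588-89101959). It was at 49.7 CPM [48.2, 51.2] and 47.2 CPM [45.8, 48.8], a log2 ratio of -0.07 [-0.14, -0.01] that was 0.0025 [-0.06, 0.07] once the non-T gate was left out.

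Fdft1, squalene synthase (ENSMUSG00000021273, chr14:63145150-63179578), was at 13.8 CPM [13.1, 14.6] at day +7 and at 16.2 CPM [15.3, 17.0] at day +14, and its log2 ratio was 0.22 [0.11, 0.34]. Sqle, the squalene epoxidase and a rate-limiting step (ENSMUSG00000022351, chr15:59315077-59331192), was level at 10.3 CPM [9.66, 11.0] and 10.3 CPM [9.64, 11.0]. Cyp51, the lanosterol demethylase (ENSMUSG00000001467, chr5:4081145-4104746), had the highest day ratio of the 8, with 16.5 CPM [15.6, 17.4] and 20.2 CPM [19.3, 21.2] and a log2 ratio of 0.29 [0.19, 0.40]. Fdft1 overlaps Ctsb and Cyp51 overlaps Akap9, each on the opposite strand, and whether reads were counted by strand is not given in the sources used here, so reads in the shared stretches cannot be assigned with certainty.

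Among the regulators, Srebf2 (ENSMUSG00000022463, chr15:82147181-82205379) was at 30.3 CPM [29.2, 31.5] at day +7 and at 36.4 CPM [35.1, 37.7] at day +14, a log2 ratio of 0.26 [0.19, 0.34]. Insig1, the sterol-induced retention factor (ENSMUSG00000045294, chr5:28071363-28078662), was at 7.24 CPM [6.68, 7.83] and 7.79 CPM [7.21, 8.41], below the 10 CPM minimum, with a log2 ratio of 0.11 [-0.05, 0.27]. The intervals of the 2 days overlap for Insig1 and not for Srebf2.

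**Figure D1:**
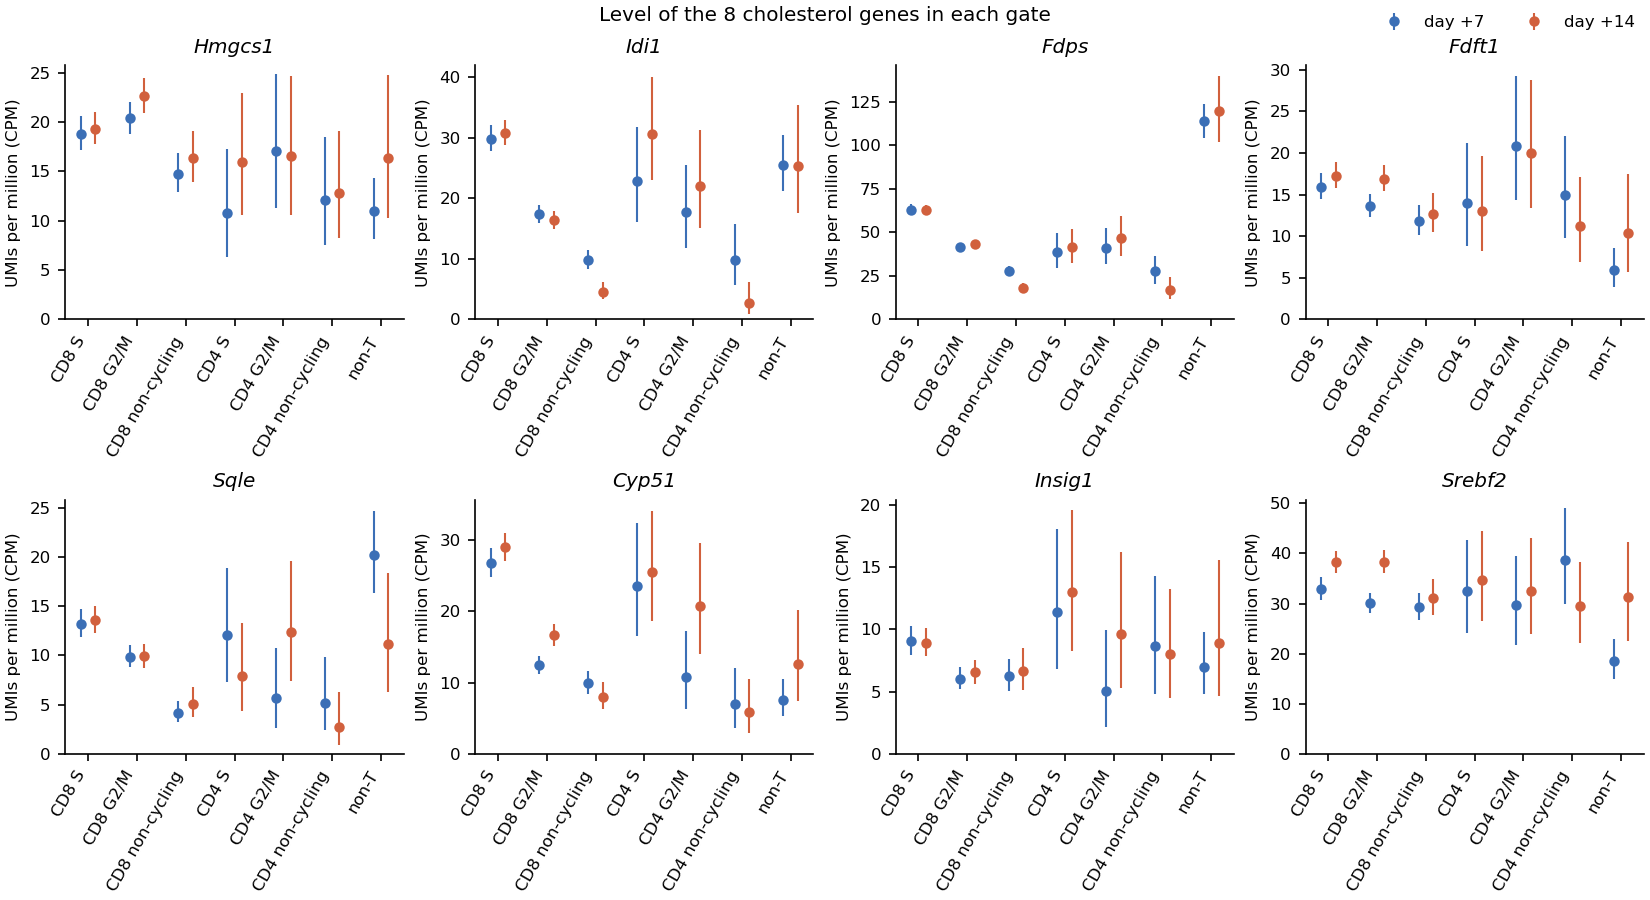
Level of each of the 8 genes (CPM, vertical axis from 0, a scale of its own per panel) in 7 gates at day +7 (blue) and day +14 (orange); points are levels and bars are 95% Poisson intervals, which cover counting error only. Idi1, Fdps, Sqle and Cyp51 are highest in S phase among the CD8 gates and lowest in non-cycling cells, Fdps is at 114 and 120 CPM in non-T cells, and Srebf2 stays between 29.3 and 38.6 CPM in all T cell gates.

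The levels were next compared between cycle states. In CD8 cells the 8 genes together were at 178 CPM [175, 182] in cycling and 114 CPM [109, 119] in non-cycling cells at day +7, a log2 ratio of 0.65 [0.57, 0.72]. At day +14 they were at 196 CPM [192, 200] and 103 CPM [96.2, 109], a log2 ratio of 0.94 [0.84, 1.03]. In CD4 cells the ratios were 0.34 [0.10, 0.58] and 1.01 [0.77, 1.27]. In CD8 cells 4 of the 8 genes, Idi1, Fdps, Sqle and Cyp51, were past 0.5 upward on both days, against a background of 19.2% of genes at day +7 and 20.9% at day +14. Sqle is the 1 of these 4 with a mean under 10 CPM, and 6 of the 8 genes passed that minimum on each day. In CD4 cells the same 4 of 8 were past it at day +7, and at day +14 Fdft1 and Insig1 joined them as 6 of 8, with a background of 19.4% on each day. In each lineage and on each day 6 of the 8 passed the minimum, and Sqle and Insig1 did not. Of these 6 in CD4 cells, 3 were past 0.5 upward at day +7 and 4 at day +14. Some of the CD4 intervals include 0. They are those of Sqle at day +7, 0.77 [-0.35, 2.04], and of Fdft1, 0.53 [-0.23, 1.33], and Insig1, 0.52 [-0.38, 1.49], at day +14. None of the 8 was past 0.5 downward, where 11.0% and 15.7% of all genes were in CD8 cells at day +7 and day +14, and 15.4% and 23.2% in CD4 cells.

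Idi1 had the highest ratio at day +14. It was at 23.1 CPM [21.9, 24.4] in cycling and 9.76 CPM [8.26, 11.4] in non-cycling CD8 cells at day +7, a log2 ratio of 1.25 [1.00, 1.50]. At day +14 it was at 23.8 CPM [22.5, 25.1] and 4.58 CPM [3.33, 6.15], a ratio of 2.38 [1.94, 2.84]. The cycling level was alike on both days and the non-cycling level was lower at day +14. In CD4 cells Idi1 had 64 UMIs in cycling and 17 in non-cycling cells at day +7 and 86 and 5 at day +14, for ratios of 1.05 [0.26, 1.91] and 3.32 [2.05, 4.98].

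Fdps followed the same order, with 51.5 CPM [49.7, 53.5] against 27.8 CPM [25.3, 30.6] in CD8 cells at day +7 and 53.4 CPM [51.5, 55.3] against 18.0 CPM [15.4, 20.9] at day +14. Its ratios were 0.89 [0.74, 1.04] and 1.57 [1.35, 1.80]. For Cyp51 they were 0.95 [0.70, 1.20] and 1.52 [1.19, 1.87], and for Sqle 1.46 [1.08, 1.85] and 1.21 [0.79, 1.66]. Hmgcs1 and Fdft1 had smaller ratios in CD8 cells, 0.41 [0.21, 0.63] and 0.31 [0.08, 0.55] at day +7 and 0.36 [0.12, 0.61] and 0.43 [0.16, 0.71] at day +14.

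The regulators had the smallest ratios in CD8 cells. Srebf2 in CD8 cells was at 31.4 CPM [30.0, 32.9] in cycling and 29.3 CPM [26.7, 32.2] in non-cycling cells at day +7, a ratio of 0.10 [-0.05, 0.25], and the ratio at day +14 was 0.30 [0.12, 0.48]. Insig1 had ratios of 0.25 [-0.07, 0.59] and 0.22 [-0.16, 0.62]. Both intervals of Insig1 include 0, and those of Idi1, Fdps, Sqle and Cyp51 lie above 0.70 throughout.

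**Figure D2:**
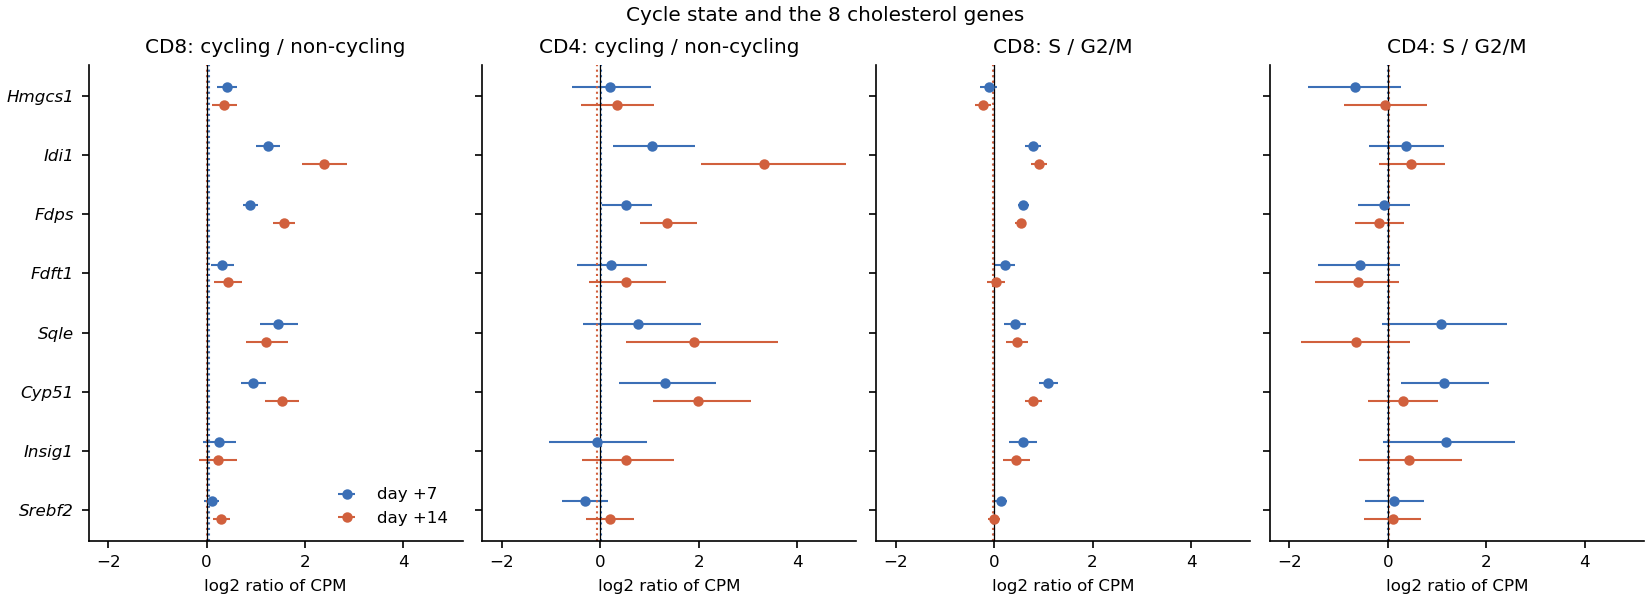
Log2 ratios of CPM (horizontal axis) of cycling over non-cycling and of S over G2/M cells for the 8 genes, in CD8 and CD4 cells at day +7 (blue) and day +14 (orange); bars are 95% binomial intervals and dotted lines the median of all genes tested. Idi1, Fdps, Sqle and Cyp51 lie between 0.89 and 2.38 in cycling over non-cycling CD8 cells, and Insig1 and Srebf2 lie between 0.10 and 0.30.

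Within cycling CD8 cells, the 8 genes together were higher in S phase than in G2/M, at 210 CPM [204, 215] against 151 CPM [147, 156] at day +7 and at 220 CPM [215, 226] against 171 CPM [166, 176] at day +14. The log2 ratios were 0.47 [0.41, 0.53] and 0.37 [0.31, 0.42]. Past 0.5 upward were 4 of 8 genes at day +7 (Cyp51, Idi1, Fdps and Insig1) and 3 of 8 at day +14 (Idi1, Cyp51 and Fdps), where 5.12% and 4.14% of all genes were. Insig1 was under the minimum on both days, and of the 7 genes that passed it 3 were past 0.5 upward on each day. Cyp51 had 1.10 [0.92, 1.29] and 0.80 [0.63, 0.96], Idi1 0.79 [0.62, 0.95] and 0.91 [0.75, 1.08], and Fdps 0.60 [0.49, 0.70] and 0.54 [0.43, 0.64]. Hmgcs1 lay on the other side of 0, at -0.11 [-0.29, 0.06] and -0.23 [-0.39, -0.06]. Srebf2 was at 0.13 [-0.0047, 0.27] and -0.0037 [-0.13, 0.12]. In CD4 cells the sums in S and G2/M were closer, with log2 ratios of 0.17 [-0.09, 0.43] and 0.01 [-0.23, 0.25].

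When CD8 cells were ordered by the larger of their S phase and G2/M shares, the levels were highest in the middle of that order. Together the 8 genes were at 118 CPM [104, 134] below 0.02% at day +7 and at 100.1 CPM [81.1, 122] at day +14. The highest bin was 0.2% to 0.4%, with 191 CPM [185, 197] and 216 CPM [209, 222]. From 0.8% on, where every cell was assigned to G2/M, the sums were 121 CPM [110, 132] and 139 CPM [128, 151]. Fdps was at 58.6 CPM [55.5, 61.9] in the highest bin and 20.8 CPM [16.4, 26.0] from 0.8% on at day +7, and Cyp51 at 20.7 CPM [18.8, 22.7] and 7.20 CPM [4.74, 10.5]. Hmgcs1 did not come down: it was at 18.7 CPM [17.0, 20.6] and 21.1 CPM [16.7, 26.2] in the same bins. These bins were chosen after the data had been seen.

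**Figure D3:**
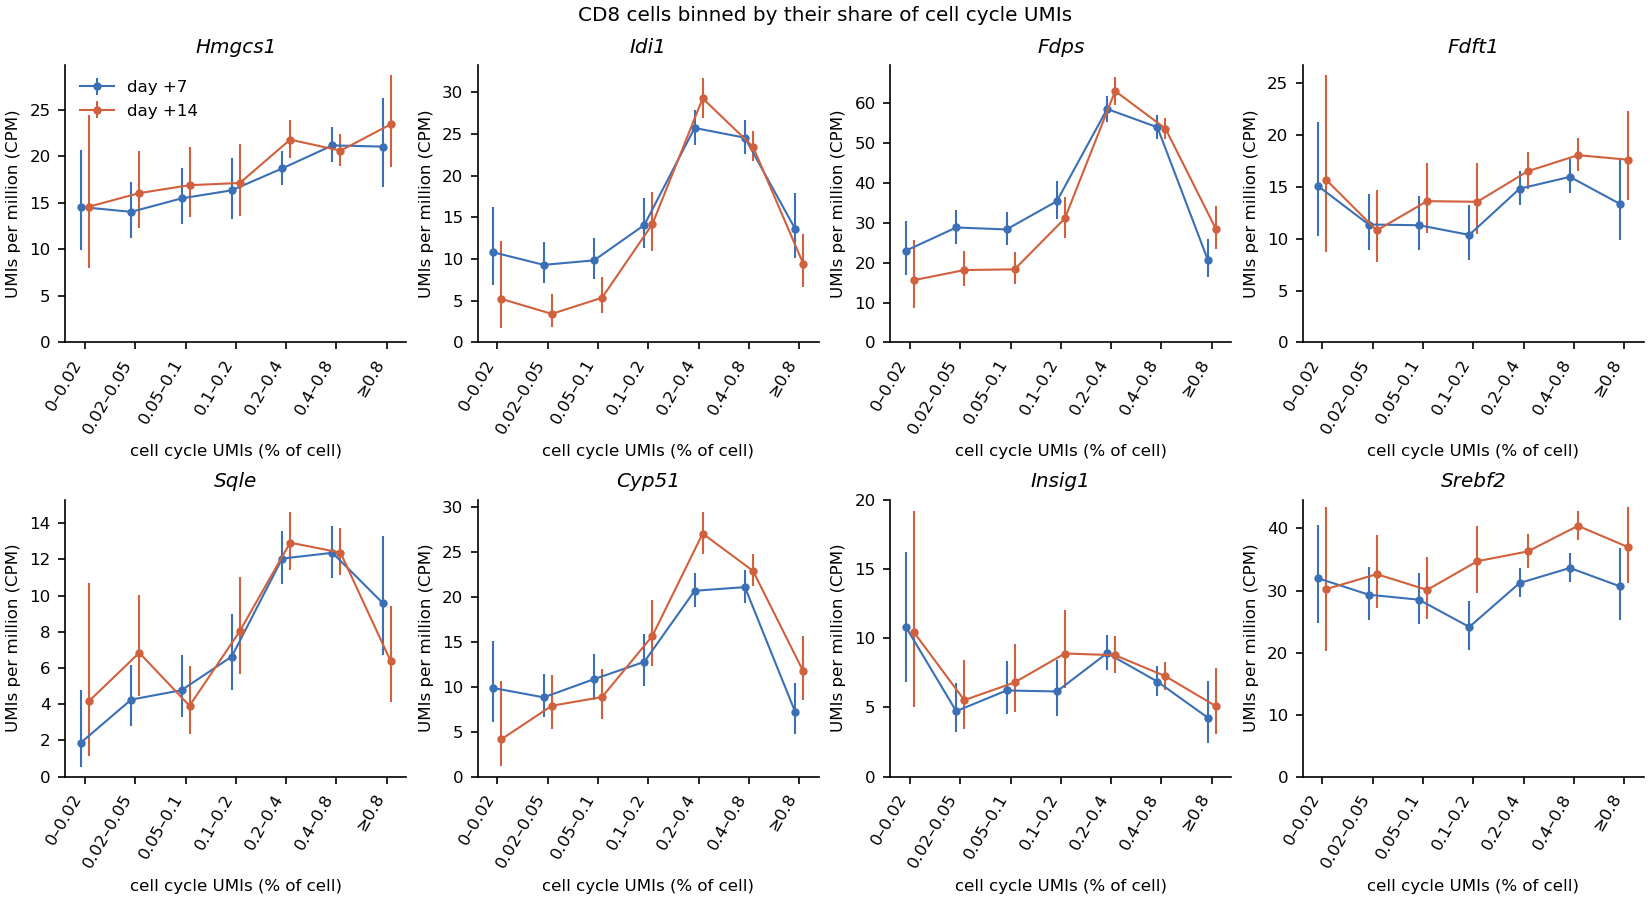
Level of the 8 genes (CPM, vertical axis from 0) in CD8 cells placed in 7 bins by the percent of their UMIs on the S phase or the G2/M list, whichever is larger (horizontal axis, unequal bins), at day +7 (blue) and day +14 (orange); bars are 95% Poisson intervals. Idi1, Fdps, Sqle and Cyp51 peak in the middle bins from 0.2% to 0.8% and are lower from 0.8% on, and Idi1 and Fdps at day +14 lie under day +7 in the bins below 0.1%.

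The day difference was then taken within cycle gates. In cycling CD8 cells the sum had a day log2 ratio of 0.14 [0.10, 0.18] and none of the 8 genes was past 0.5, against 16.7% of all genes in either direction. The median of all genes in that gate was 0.17, and after median scaling within the gate the sum was at -0.06 [-0.10, -0.02]. In cycling CD4 cells the sum had 0.21 [0.04, 0.39], none of 8 was past 0.5, and 22.2% of all genes were. Srebf2 and Cyp51 had the highest ratios in cycling CD8 cells, 0.28 [0.19, 0.38] and 0.27 [0.15, 0.39], and Idi1 and Fdps had 0.04 [-0.07, 0.15] and 0.05 [-0.02, 0.13].

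In non-cycling cells the sum was lower at day +14, with -0.15 [-0.26, -0.04] in CD8 and -0.47 [-0.76, -0.17] in CD4 cells. Idi1 and Fdps were past 0.5 downward in non-cycling CD8 cells, 2 of 8 genes against 4.93% of all genes, and Idi1, Fdps and Sqle in CD4 cells, 3 of 8 against 5.95%. The minimum level was passed by 4 of the 8 genes in the CD8 and 2 in the CD4 gate, and of these Fdps alone was called. Idi1 in CD8 cells went from 150 UMIs (9.76 CPM) to 44 UMIs (4.58 CPM), a log2 ratio of -1.09 [-1.61, -0.60]. Fdps went from 428 UMIs (27.8 CPM) to 173 UMIs (18.0 CPM), a ratio of -0.63 [-0.89, -0.37]. The other 6 had intervals that include 0 in these CD8 cells, Srebf2 with 0.09 [-0.13, 0.30] and Hmgcs1 with 0.15 [-0.16, 0.45]. In non-cycling CD4 cells Idi1 had 17 and 5 UMIs, a ratio of -1.88 [-3.67, -0.38], and Sqle 9 and 5, a ratio of -0.96 [-2.88, 0.78].

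The sum in non-cycling CD8 cells depended on where the limit of cycling was set. With cells up to 0.2% included it was -0.02 [-0.11, 0.07], and with only those below 0.05% it was -0.15 [-0.32, 0.01]. Idi1 was at -1.36 [-2.18, -0.61] with the limit at 0.05% and -0.51 [-0.84, -0.17] with it at 0.2%. The non-cycling gate held less of the G2/M list at day +14 (205 against 244 CPM) and more of the S phase list (472 against 413 CPM), and Stmn1 was lower as given above. The part of these differences in the result was not tested.

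**Figure D4:**
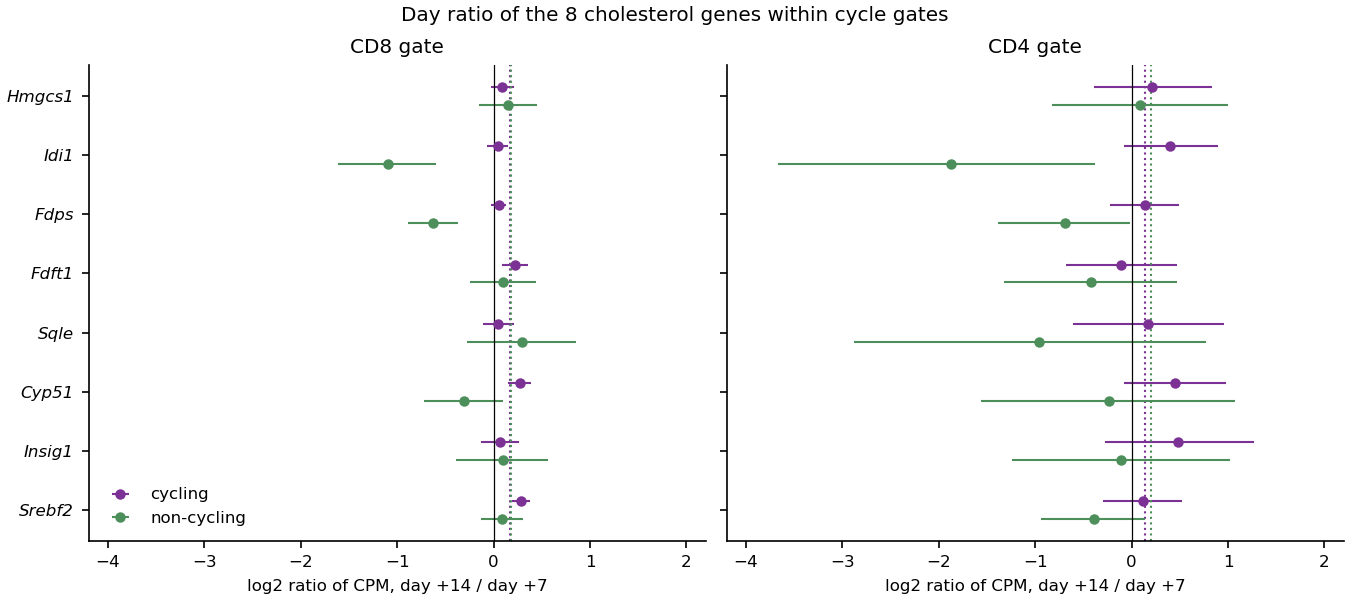
Log2 ratio of CPM of day +14 over day +7 (horizontal axis) for the 8 genes in cycling (purple) and non-cycling (green) CD8 and CD4 cells; bars are 95% binomial intervals and dotted lines the median of all genes tested in each gate. In non-cycling CD8 cells Idi1 at -1.09 and Fdps at -0.63 lie left of 0, while all 8 genes in cycling CD8 cells lie between 0.04 and 0.28.

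CD4 and CD8 cells of the same cycle gate differed little in these genes. In cycling cells the sum had a log2 ratio of CD4 over CD8 of -0.19 [-0.32, -0.06] at day +7 and -0.11 [-0.23, 0.01] at day +14, and in non-cycling cells 0.12 [-0.09, 0.33] and -0.19 [-0.44, 0.05]. In cycling cells, where 7 genes passed the minimum, 0 of 8 were past 0.5 in size at day +7 and 1 of 8 at day +14 (Insig1), where 8.62% and 10.6% of all genes were. In non-cycling cells they were 1 of 8 (Cyp51) and 2 of 8 (Idi1 and Sqle), on 12, 5 and 5 UMIs in CD4 cells. Of the 4 genes that passed the minimum there on each day, 0 were past 0.5, against 16.3% and 18.2% of all genes. Fdps in cycling cells was lower in CD4 than in CD8, with 39.9 CPM [33.2, 47.5] against 51.5 CPM at day +7 and at 43.9 CPM [37.0, 51.8] against 53.4 CPM at day +14. Hmgcs1 was at -0.50 [-0.97, -0.06] and -0.37 [-0.80, 0.03].

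Fdps was higher in the non-T gate than in T cells on both days. It was at 114 CPM [104, 124] in non-T and 46.0 CPM [44.5, 47.5] in T cells at day +7, and at 120 CPM [102, 140] and 46.1 CPM [44.6, 47.6] at day +14, for log2 ratios of 1.31 [1.18, 1.44] and 1.38 [1.14, 1.60]. At day +7, 2 of 8 genes (Fdps and Sqle) were past 0.5 upward and 4 of 8 downward (Fdft1, Cyp51, Hmgcs1 and Srebf2), against 30.3% and 22.6% of all genes. At day +14 they were 1 (Fdps) and 2 (Cyp51 and Fdft1), against 17.0% and 31.4%. Cells led by the granulocyte list had 243 CPM [212, 278] of Fdps at day +7 and 117 CPM [94.6, 143] at day +14, and cells led by the erythroid list 85.4 CPM [76.1, 95.6] and 105 CPM [64.0, 162]. Sqle at day +7 was at 24.8 CPM [19.9, 30.5] in the erythroid-led and 4.51 CPM [1.23, 11.5] in the granulocyte-led cells, which held 122 and 46 cells. At day +14 the erythroid-led cells were 27 and held 4 UMIs of Sqle. The non-T gate also held S phase list UMIs, at 2415 CPM at day +7 and at 1609 CPM at day +14 against 2073 and 2537 CPM in the T gate.

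Over 12 strata (S, G2/M and non-cycling cells of CD8 and CD4 at each day), the levels of Idi1, Fdps, Sqle and Cyp51, as log2(CPM + 1), moved most closely with those of the other 7 genes together, with Pearson's r of 0.94, 0.93, 0.91 and 0.91. For Fdft1, Srebf2, Hmgcs1 and Insig1 r was 0.57, 0.43, 0.40 and 0.36. Strata of a day share a library, and those of few cells carry wide counting error, so r is a description. The highest stratum exceeded the lowest 11.5-fold for Idi1, 5.09-fold for Sqle, 4.93-fold for Cyp51 and 3.68-fold for Fdps, and 1.32-fold for Srebf2. CD8 cells in S phase at day +14 were highest for Idi1, Sqle and Cyp51, and non-cycling CD4 cells at day +14 were lowest for these and for Fdps and Fdft1. That lowest stratum held 5 UMIs each of Idi1 and Sqle, 2.67 CPM [0.87, 6.24], so the folds of these 2 genes are uncertain. Among 2532 genes of at least 50 CPM outside the pathway lists, those most like the sum of the 8 over the strata were Ciao2a (r = 0.98), Snrpf (0.98), Mdh2 (0.97), Dpy30 (0.96) and Slc25a5 (0.96), known for iron-sulfur protein assembly, splicing, the citric acid cycle, histone methylation and mitochondrial ADP/ATP exchange.

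The other 55 genes of the pathway lists were examined by role. Over all kept cells 28 of them passed the minimum level, of which 6 were past 0.5 upward and 1 downward from day +7 to day +14, beside 14.1% and 3.27% of all genes, with a median of 0.34 beside 0.18. Ggps1, which extends farnesyl to geranylgeranyl diphosphate, had 0.22 [0.13, 0.31], and Dhcr7, which makes cholesterol from its last precursor, had 0.57 [0.44, 0.70]. Of the 15 synthesis genes that passed, the 6 listed enzymes included, 1 was past 0.5 upward and 0 downward, beside the same 14.1% and 3.27%, and their median was 0.13.

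The 7 regulators were the SREBP genes Srebf1 and Srebf2 and genes of SREBP processing. Srebf2 and Insig1 are among them and were given above. Of the 7, 5 passed, and 2 of these, Mbtps1 and Srebf1, were past 0.5 upward beside 14.1% of all genes. The median of the 5 was 0.50. Mbtps1, the Golgi protease that first cleaves SREBP, had 0.60 [0.51, 0.70], and Srebf1 had 0.54 [0.42, 0.67]. Scap, the escort, had 0.42 [0.30, 0.55], and Insig2, which encodes an INSIG retention protein, had 0.498 [0.39, 0.60]. Srebf1 and Insig2 were named after their values had been seen. For uptake and transport, 3 of 9 genes passed and 0 of these were past 0.5, and Npc2, which carries cholesterol out of lysosomes, had -0.07 [-0.10, -0.04]. The receptor genes Lrp8 and Scarb1 were under the minimum. They were at 3.65 and 3.75 CPM at day +7 and at 4.43 and 3.98 CPM at day +14. Nceh1, which releases cholesterol from its stored esters, had 0.40 [0.27, 0.53], and Pggt1b, a subunit of the enzyme that attaches geranylgeranyl groups to proteins, had 0.59 [0.50, 0.68]. Scd2, a fatty acid desaturase, had the highest ratio of the pathway genes that passed, 0.80 [0.69, 0.91]. Gpr183, the receptor for the oxysterol 7α,25-dihydroxycholesterol, had the lowest, with 54.1 CPM [52.5, 55.6] and 27.9 CPM [26.8, 29.1] and a log2 ratio of -0.95 [-1.02, -0.88].

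**Figure D5:**
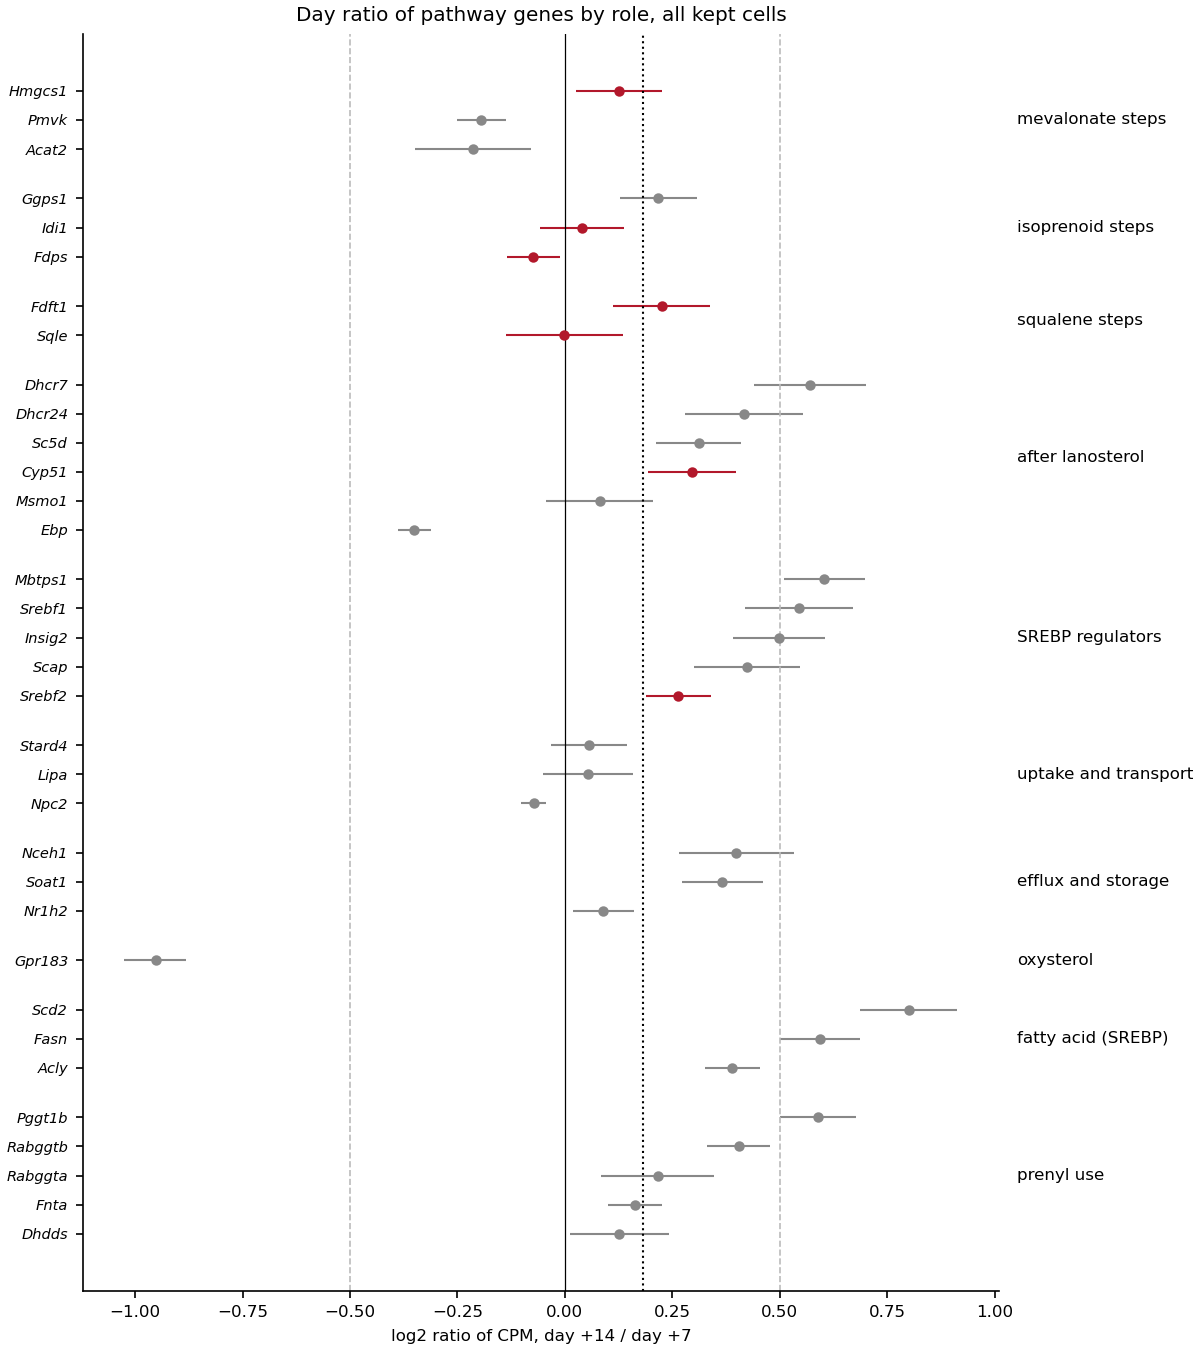
Log2 ratio of CPM of day +14 over day +7 over all kept cells (horizontal axis) for 34 of the 35 pathway genes that passed the minimum level, grouped by role, with 7 of the 8 listed genes in red and others in gray; bars are 95% binomial intervals, the dotted line is the median of all genes (0.18) and dashed lines mark 0.5 and -0.5. All 5 regulators lie right of the dotted line, from 0.26 to 0.60, and Gpr183 stands alone at -0.95.

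By cycle state in CD8 cells, 13 of the 21 synthesis genes passed the minimum on each day. At day +7, 4 were past 0.5 upward (Idi1, Fdps, Cyp51 and Acat2) and 1 downward (Ggps1), and at day +14, 4 upward (Idi1, Fdps, Cyp51 and Sc5d) and 0 downward. Over all genes 19.2% and 11.0% were past it upward and downward at day +7, and 20.9% and 15.7% at day +14. Their medians were 0.25 and 0.36, beside 0.05 and 0.01 over all genes. Ggps1 was at -0.51 [-0.67, -0.35] and -0.43 [-0.61, -0.25]. Of the named genes of other roles, lower levels in cycling cells on both days were found for Npc2, with -0.89 [-0.94, -0.84] and -0.85 [-0.91, -0.79], and for Gpr183, with -0.46 [-0.57, -0.36] and -0.38 [-0.55, -0.21]. Nceh1 was at -0.34 [-0.59, -0.07], under the minimum at day +7, and -0.61 [-0.86, -0.35], and Mbtps1 at -0.16 [-0.35, 0.04] and -0.25 [-0.44, -0.07]. Acat2 and Sc5d were named after their values had been seen.

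Per cell, these transcripts were sparse. After each cell was thinned to 4000 UMIs, with 31 to 327 shallower CD8 cells per gate left out, any of the 8 was seen in 43.6% [42.0, 45.2] of cycling and 34.0% [32.0, 36.1] of non-cycling CD8 cells at day +7, and in 48.0% [46.5, 49.6] and 32.0% [29.6, 34.6] at day +14. Unthinned, the shares were 76.1% and 49.3% at day +7 and 76.4% and 41.0% at day +14. Idi1 was seen in 7.40% [6.59, 8.29] of thinned cycling and 3.32% [2.60, 4.18] of thinned non-cycling CD8 cells at day +7, and in 7.49% [6.71, 8.34] and 1.66% [1.06, 2.49] at day +14. No gate is known to lack Idi1, so its own background from free RNA could not be measured. In thinned non-T cells it was seen in 6.75% [3.42, 11.7] at day +7 and 10.1% [4.73, 18.3] at day +14. For a T cell gene, Cd8a was seen in 3.68% [1.36, 7.84] of thinned non-T cells at day +7 and 14.6% [8.01, 23.7] at day +14, against 45.2% and 72.4% of T cells. Median depths were 15879 and 5623 UMIs in the non-T gate and 6609 and 5111 UMIs in non-cycling CD8 cells. Cd8a is more abundant than Idi1, so its share does not measure the free RNA of Idi1, whose part in the Idi1 levels was not tested. S100a8, a granulocyte gene, was seen in 3.29% [2.88, 3.74] and 5.98% [5.43, 6.58] of thinned T cells.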

How the data were processed

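scRNA-seq was performed on 2 libraries of sorted splenic donor T cells. The authors deposited counts, UMIs of each gene in each cell as whole numbers without normalization, made with Cell Ranger 6.1.2 for barcodes that passed its cell detection. The submitters' processing notes name build mm10, and gene positions come from the GENCODE annotation of that build. Barcodes were kept with 500 to 7500 detected genes and at most 15% mitochondrial UMIs. Scrublet, run in scanpy 1.11.5, marked 0 cells of either library by its own threshold and so had not worked. Removal of its highest 493 and 599 scores was tried instead. Cells with both Cd4 and a Cd8 gene (206 at day +7 and 521 at day +14) or neither (307 and 415) entered no lineage gate.

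UMIs were summed per gate and compared as log2 ratios with no value added, in Python 3.11.15 with pandas 2.3.3, scipy 1.17.1 and numpy 2.4.6. The calculations were tested on simulated data. Named genes are the 8, Scap, the gene with the largest day ratio in each role list, and the 5 most alike genes, and some genes of this rule are not reported here. The genes, lists and tests were chosen with earlier results of these data known. Alternatives covered scaling, filters, thinning, gates and the cycling limit.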

Additional observations from a re-analysis of the deposited data

Results flagged for a closer look

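The day difference of the 8 genes together had opposite signs in cycling and non-cycling cells of both lineages. The log2 ratio of day +14 over day +7 was 0.14 in cycling and -0.15 in non-cycling CD8 cells, and 0.21 in cycling and -0.47 in non-cycling CD4 cells. The signs were not opposite for each gene. In CD8 cells Hmgcs1, Sqle, Fdft1, Insig1 and Srebf2 were above 0 in both gates. Idi1 (-1.09), Fdps (-0.63) and Cyp51 (-0.30) were below 0 in the non-cycling CD8 gate, the last with an interval that includes 0. In CD4 cells Hmgcs1 was above 0 and Fdft1 below 0 in both gates. Under median-ratio scaling within the gate both CD8 sums were below 0, at -0.062 and -0.35. With cycling from 0.2% the non-cycling CD8 sum was -0.016 [-0.11, 0.07], and with cycling from 0.05% the cycling CD4 sum was 0.088 [-0.07, 0.25]. Each day is 1 library, and the difference between the gates was not tested.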

How the results depend on the processing

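No paired analysis was possible because each time point is 1 library and the labels number no replicates, and leaving out a replicate was not possible for the same reason. The day log2 ratio of the 8 genes over all kept cells (0.10) was -0.10 under median-ratio scaling, 0.060 with mitochondrial, ribosomal protein and histone genes out of the total and -0.067 as an unweighted mean of the 4 CD8 and CD4 cycle gates, and it stayed within its interval under the other 6 alternatives. Hmgcs1 turned to -0.082 under median-ratio scaling, Fdps to 0.0025 without the non-T gate and Fdft1 to -0.051 in the mean of gates. In that mean Idi1 went from 0.040 to -0.63 and Fdps from -0.073 to -0.28. Cyp51 went from 0.295 to 0.046 and Srebf2 from 0.26 to 0.023. In cycling CD8 cells the sum (0.14) was -0.062 under median-ratio scaling within the gate and 0.071 in S phase cells alone, an alternative added after the data had been seen. In non-cycling CD8 cells (-0.15) it was -0.35 under that scaling and -0.016 with cycling from 0.2%, and the cycling over non-cycling ratio of CD8 cells at day +14 (0.94) was 0.79 with that limit. The count of all genes past 0.5 upward (979) and downward (226) was 4618 and 2350 with no filter beyond 1 UMI in each library, and 399 and 459 under median-ratio scaling, while the count of the 8 genes stayed 0. Requiring 2 UMIs for a gate left every sum within its interval. The causes of these shifts were not tested, beyond the scaling lowering every ratio alike. Depth limits the CD4 and non-T gates most: Idi1 in non-cycling CD4 cells at day +14 rests on 5 UMIs.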

Other observations

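CD4 cells with a Foxp3 UMI, the transcript that marks regulatory T cells, numbered 20 at day +7 and 13 at day +14. The 8 genes together were at 196 CPM [140, 266] in them at day +7, on 40 UMIs, and at 143 CPM [132, 154] in the other CD4 cells. Hmgcs1 had 8 UMIs in these 20 cells, 39.1 CPM [16.9, 77.1] against 12.2 CPM [9.21, 15.8], and at day +14 it had 1 UMI in the 13 cells. At day +14 the sum was at 141 CPM [73.0, 247] against 148 CPM [137, 159].

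Cells with UMIs of both Cd4 and a Cd8 gene had the 8 genes at 190 CPM [177, 204] at day +7 and at 166 CPM [158, 175] at day +14. Among fatty acid genes below the minimum level, Fads2 had 37 UMIs at day +7, of which 4 lay in cycling and 0 in non-cycling CD8 cells, and 4 at day +14, of which 3 lay in cycling CD8 cells. In the same list, Elovl6, an elongase, was at 4.16 and 8.10 CPM. These genes were named after their values had been seen.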
